A study of Mus musculus with 2 samples.

Results

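The 7 genes described here belong to a pair of interferon-linked families of the mouse. Ifi204, Ifi207, Ifi203 and Mndal are Ifi200 genes, and Slfn2, Slfn5 and Slfn8 are Schlafen genes. They were taken by name, as 7 of the 31053 genes listed. The names were chosen by their counts in these same libraries, among them the ratio of the plasma-positive to the plasma-negative library, so that ratio is given as a description. The data are 2 droplet libraries of microglia, macrophages that live in brain tissue, from the hypothalamus of young wild-type mice that had been injected with plasma protein carrying a dye. Both groups received that injection, and the cells were sorted 20 hours later into microglia that carried the dye (plasma-positive) and microglia that did not (plasma-negative). Several mice were pooled, the labels give neither their number nor their sex, and each sort gave 1 library. No difference between the libraries therefore has a replicate check, no test was run, and every interval is a 95% interval that covers counting error only. UMIs (unique molecular identifiers, 1 per captured RNA molecule) of 1 cell are not independent of each other, so these intervals are narrower than the variation between cells would make them.

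Ifi200 proteins pair a pyrin domain, which binds other pyrin domains, with HIN domains that bind DNA. Several act as sensors of DNA in the nucleus or cytosol, and most of the genes lie side by side and are induced by interferon. Schlafen genes form a second cluster. They were first described in thymocytes, where forced expression slowed growth, and the longer members carry a helicase-like domain and restrict viruses or act in replication stress. In brain macrophages both families are read as part of the response to type I interferon.

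The libraries after filtering held 34534518 UMIs from 9860 plasma-negative cells and 41984977 UMIs from 10362 plasma-positive cells. Median depth was 3270.5 and 3753 UMIs per cell, and the median share of mitochondrially encoded UMIs was 1.08% and 1.27%. At least 3 of 11 microglia markers were found in 9856 plasma-negative and 10360 plasma-positive cells. Of the 7 other cell types with marker lists, only border-associated macrophages, the macrophages of the meninges and perivascular spaces, gave cells with at least 3 markers, 0 in the plasma-negative and 4 in the plasma-positive library. Their 7 markers summed to 3.62 CPM (UMIs of a gene per 1000000 UMIs of the library) and 6.19 CPM, with 3 and 1 of them at 0 UMIs. Because nearly all cells were microglia, no cell type that should lack these genes was at hand to measure the share of cells with a UMI that free RNA gives.

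The 4 Ifi200 genes lie on chromosome 1 (GRCm38, GENCODE M21), all on the minus strand and annotated as protein-coding. Ifi207 (ENSMUSG00000073490) runs from 173723427 to 173741747 and Ifi204 (ENSMUSG00000073489) from 173747293 to 173766943. Mndal (ENSMUSG00000090272) runs from 173849126 to 173942491 and overlaps Ifi203 (ENSMUSG00000039997), from 173920407 to 173942672, on the same strand. The Schlafen genes lie on chromosome 11, with Slfn5 (ENSMUSG00000054404) from 82951349 to 82964840 and Slfn2 (ENSMUSG00000072620) from 83065112 to 83070678 on the plus strand, and Slfn8 (ENSMUSG00000035208) from 83002158 to 83020810 on the minus strand. The build the authors counted on is not given in the sources used here.

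Promoter sequences were available in RefSeq (GRCm38.p6) for 6 of the 7 genes, Ifi204 excepted, as windows from 250 bases before to 50 bases after an annotated start. They were searched on both strands for GAAANNGAAA, the core letters of the interferon-stimulated response element, for GGAANNGAAA, the letters of a joint ETS and IRF site, and for TTCNNNGAA, the core of the gamma-activated site. The first 2 motifs differ at their second letter, so a stretch cannot match both in the same register. Whether such sites bear on the levels of the genes was not tested. Sites are shown with 10 bases on either side, 5′ to 3′ on the strand of the gene and the match in capitals.
Ifi207, chr1:173741831-173741860, minus strand: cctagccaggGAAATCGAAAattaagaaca
Mndal, chr1:173880204-173880233, minus strand: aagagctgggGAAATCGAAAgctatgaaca
Ifi203, chr1:173942508-173942537, minus strand: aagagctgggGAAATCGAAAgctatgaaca
Slfn5, chr11:82951937-82951966, plus strand: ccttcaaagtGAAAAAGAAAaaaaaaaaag
Slfn8, chr11:83020839-83020868, minus strand: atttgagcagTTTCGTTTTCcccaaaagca
Slfn2, chr11:83065043-83065072, plus strand: gaggcagggcTTTCACTTCCtggagggtga
The 3 Ifi200 genes hold the same 10 letters, GAAATCGAAA, and the printed stretches of Mndal and Ifi203 are identical. These matches begin 41 (Ifi207), 36 (Mndal) and 35 (Ifi203) bases before a start. In Slfn8 the motif reads GAAAACGAAA on the opposite strand and begins 48 bases before the outer start. In Slfn5 it begins 155 bases before the RefSeq start (82952102) and runs into a stretch of A. RefSeq starts can differ from the GENCODE spans given above. The Slfn5 start and those of the printed Mndal (173880187) and Ifi203 (173942492) sites lie inside these spans, as do the sites. The GENCODE span of Mndal ends at 173942491, beside that Ifi203 start. Slfn2 holds no GAAANNGAAA in its window. It holds GGAAGTGAAA, a match to the joint ETS and IRF letters, on the opposite strand, beginning 59 bases before the start.

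GAAANNGAAA occurred in the windows of 5 of the 6 genes (7 of 9 windows), and in 3.99% of all 27025 genes with a window (3.44% of 32851 windows). The Slfn8 windows overlap and hold the same match. Another Mndal window holds a match that is not printed, on the opposite strand and beginning 54 bases before its start. The window of the outer Ifi203 start holds none. GGAANNGAAA occurred in 1 of the 6 and in 3.16% of all genes, and TTCNNNGAA in 0 of the 6 and in 9.55% of all genes. Among the other Ifi200 genes GAAANNGAAA was found for 6 of 9 (Ifi205, Ifi206, Ifi208, Ifi211, Ifi213 and Ifi214) and among the other Schlafen genes for 1 of 7 (Slfn9). A match is a run of letters and not a shown site of binding. The 250 bases before the start are printed for one gene of each pattern, with matches in capitals.
Ifi207, chr1:173741810-173742059, minus strand: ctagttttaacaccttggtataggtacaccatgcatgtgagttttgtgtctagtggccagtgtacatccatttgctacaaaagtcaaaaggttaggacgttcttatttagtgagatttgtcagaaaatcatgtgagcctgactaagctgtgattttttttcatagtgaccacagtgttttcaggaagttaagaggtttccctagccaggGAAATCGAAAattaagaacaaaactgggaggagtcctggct
Slfn8, chr11:83020811-83021060, minus strand: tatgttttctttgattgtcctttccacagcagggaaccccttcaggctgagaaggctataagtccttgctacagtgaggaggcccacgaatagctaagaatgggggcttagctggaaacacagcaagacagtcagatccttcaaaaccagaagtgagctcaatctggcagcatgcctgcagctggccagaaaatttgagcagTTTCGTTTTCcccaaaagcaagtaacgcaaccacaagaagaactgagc
Slfn2, chr11:83064862-83065111, plus strand: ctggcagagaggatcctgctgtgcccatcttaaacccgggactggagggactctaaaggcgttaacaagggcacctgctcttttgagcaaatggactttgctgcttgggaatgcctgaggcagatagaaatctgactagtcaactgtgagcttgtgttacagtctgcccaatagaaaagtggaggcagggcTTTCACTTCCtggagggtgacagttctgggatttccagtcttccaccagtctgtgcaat

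Ifi204, which encodes the DNA-binding protein p204, was counted with 540 UMIs in the plasma-negative and 1735 UMIs in the plasma-positive library. That is 15.6 CPM (14.3 to 17.0, exact Poisson interval) and 41.3 CPM (39.4 to 43.3), a ratio of 2.64 (2.40 to 2.92). The gene was seen in 341 cells (3.46%) of the plasma-negative and 905 cells (8.73%) of the plasma-positive library. The positive library was thus higher both in cells with a UMI and in UMIs per such cell, as 25.5% of the plasma-negative and 39.01% of the plasma-positive cells with a UMI held 2 or more. The highest single cells held 14 and 23 UMIs.

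Ifi207, a neighbour of Ifi204 in the same cluster, was scarcer and had the larger ratio. Its 68 plasma-negative UMIs made 1.97 CPM (1.53 to 2.50) and its 448 plasma-positive UMIs 10.7 CPM (9.71 to 11.7), a ratio of 5.42 (4.19 to 7.10). It was seen in 41 and 231 cells. Ifi204 and Ifi207 share little sequence where a 3′ library reads: 3.54% of the 50-base stretches in the last 500 bases of Ifi207's coding transcripts also occur in Ifi204.

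Mndal, the myeloid nuclear differentiation antigen-like gene, and Ifi203 were found in the plasma-positive library alone. Mndal had 35 UMIs in 14 cells and Ifi203 had 18 UMIs in 5 cells, against 0 UMIs of either gene in the plasma-negative library. In the plasma-positive library Mndal was at 0.834 CPM (0.581 to 1.16) and Ifi203 at 0.429 CPM (0.254 to 0.678). These values were 9.60 and 4.94 times the limit of 3 counts per library that a count of 0 allows (0.0869 CPM). Both multiples leave out the counting error of the plasma-positive counts and are not lower bounds. A single cell held 13 of the 18 Ifi203 UMIs and 8 of the 35 Mndal UMIs. Of the 50-base stretches near the 3′ end of Mndal, 18.7% also occur in Ifi205, Ifi211, Ifi203 or Ifi203-ps, so reads could be shared among these genes, and the low counts of Mndal are uncertain for that reason. For Ifi203 the share was 1.11%, with Ifi203-ps.

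Slfn2 is a short Schlafen gene known for holding T cells in quiescence. The plasma-negative library held 2241 UMIs of it, or 64.9 CPM (62.2 to 67.6), and the plasma-positive library 4053 UMIs, or 96.5 CPM (93.6 to 99.6). The ratio was 1.49 (1.41 to 1.57), with UMIs in 1513 cells (15.3%) and 2330 cells (22.5%). Slfn5, a longer nuclear member, was at 7.62 CPM (6.72 to 8.59) from 263 UMIs and 19.5 CPM (18.2 to 20.9) from 818 UMIs, a ratio of 2.56 (2.22 to 2.95). Slfn8, another long member, was nearly level, at 80.8 CPM (77.8 to 83.8) from 2789 UMIs and 85.9 CPM (83.1 to 88.8) from 3607 UMIs, a ratio of 1.06 (1.01 to 1.12). The 3 Schlafen genes thus spread from nearly equal to more than doubled. Slfn8 shares 25.5% of its 3′ stretches with Slfn9 or Slfn10-ps, whereas Slfn2 and Slfn5 share none with another gene, at 0%.

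**Figure D1:**
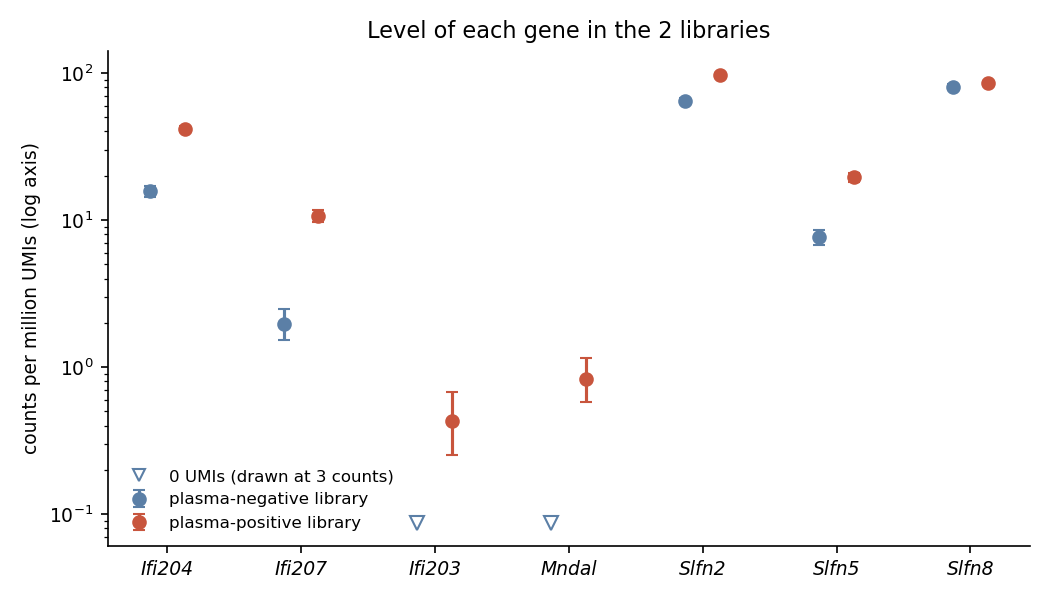
CPM (log axis) of each gene in the plasma-negative and plasma-positive library, with exact Poisson intervals of 95%; open triangles mark counts of 0, drawn at the 3-count limit. Slfn8 lies at 80.8 and 85.9 CPM, whereas Ifi207 lies at 1.97 and 10.7 CPM.

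Summed, the Ifi200 genes went from 17.6 CPM (16.2 to 19.1) to 53.3 CPM (51.1 to 55.5), a ratio of 3.03 (2.76 to 3.31). The Schlafen genes went from 153 CPM (149 to 157) to 202 CPM (198 to 206), a ratio of 1.32 (1.27 to 1.36). Of the 7 genes, 4 reached 10 CPM over both libraries pooled (Ifi204, Slfn2, Slfn5 and Slfn8). At 1.5-fold or more, 2 of these 4 were higher in the plasma-positive library, where 0.255% of the 8249 genes at that level were, and at 2-fold or more 2 of 4, where 0.158% were. At 1.5-fold or more lower there were 0 of 4, where 0.0121% of all were, and at 2-fold lower 0 of 4, where 0% were. Since the genes were picked with that contrast known, nothing is read from the shares. Slfn2, at 1.488-fold, lay just outside the smaller fold. The median log2 ratio of the 4 was 0.96, beside -0.04 over all 8249 genes.

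Cells of the plasma-positive library were deeper, so shares of cells were also taken after each cell with at least 1000 UMIs was thinned at random to 1000 UMIs. This left out 796 plasma-negative and 603 plasma-positive cells. Ifi204 was then seen in 1.35% of cells (1.12% to 1.61%, exact binomial interval) where the sort was plasma-negative, and in 2.95% (2.62% to 3.31%) where it was plasma-positive. Slfn2 was seen in 6.07% (5.59% to 6.58%) and 8.33% (7.79% to 8.90%). Slfn5 was seen in 0.519% (0.381% to 0.689%) and 1.38% (1.16% to 1.64%). For Slfn8 the intervals overlapped, at 7.27% (6.74% to 7.82%) and 7.73% (7.20% to 8.27%), although its unthinned shares were 21.8% and 24.5%. Any of the 7 genes was seen in 14.0% of 9064 thinned plasma-negative and 17.8% of 9759 thinned plasma-positive cells, against 34.8% and 42.3% without thinning.

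Cells with several of the genes were rare and more frequent in the plasma-positive library. At least 2 of the 7 were found in 1.13% of thinned plasma-negative and 2.73% of thinned plasma-positive cells, and 3 or more in 15 and 66 cells. Without thinning, 12 plasma-negative cells held 5 of the genes, none held more, and 66 plasma-positive cells held 5 or more, of which 3 held all 7. The cell with the most Ifi200 UMIs in the plasma-positive library held 18 of Ifi204, 5 of Ifi207, 13 of Ifi203 and 8 of Mndal among 10659 UMIs, with 435 Apoe UMIs. Its plasma-negative counterpart held 14 of Ifi204 and 3 of Ifi207 among 3933 UMIs, with 0 Apoe UMIs.

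The ratios were also taken inside 10 equally large groups of cells ordered by depth, and likewise by mitochondrial share, because the libraries differed in both. The ratio of Ifi204 ran from 1.70 to 5.01 over the depth bins and from 1.80 to 3.85 over the mitochondrial bins, above 1 in all 10 of each. Slfn2 ran from 1.16 to 1.77 and from 1.23 to 2.04, and Slfn5 from 1.38 to 3.47 and from 1.36 to 4.38, also above 1 in all 10 of each. Slfn8 crossed 1, from 0.835 to 1.23 over depth (above 1 in 7 of 10) and from 0.909 to 1.30 over mitochondrial share (8 of 10). The interval of the ratio lay above 1 in 10 (Ifi204), 9 (Slfn2), 7 (Slfn5) and 1 (Slfn8) of the 10 depth bins. As the genes were chosen by this ratio, these values are a description.

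Detection of one gene went with detection of another. The number of cells with both was divided by the number expected if, within each of 10 depth bins, the genes were seen independently. For any Ifi200 with any Schlafen gene this gave 203 plasma-negative cells where 134.7 were expected, a ratio of 1.51 (1.31 to 1.73). In the plasma-positive library it gave 695 cells where 441 were expected, a ratio of 1.58 (1.46 to 1.70). All 10 pairs among Ifi204, Ifi207, Slfn2, Slfn5 and Slfn8 were above 1 in both libraries, with intervals above 1.

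High ratios were found within the Ifi200 family and across the families. Ifi204 with Ifi207 gave 14.4 (9.22 to 21.4) and 6.19 (5.24 to 7.28). Slfn5 was seen with Ifi207 in 16 plasma-negative cells where 0.999 was expected, a ratio of 16.0 (9.15 to 26.0), and in 100 plasma-positive cells where 12.9 were expected, 7.74 (6.30 to 9.41). Slfn5 with Ifi204 gave 6.05 (4.46 to 8.02) and 4.37 (3.81 to 4.98). Within the Schlafen family the ratios were lower, at 2.27 (1.80 to 2.82) and 2.35 (2.10 to 2.63) for Slfn5 with Slfn2, and 1.23 (1.12 to 1.35) and 1.34 (1.25 to 1.43) for Slfn2 with Slfn8. The ratios of Slfn5 with Ifi204 and Ifi207 were thus above its ratios with its chromosomal neighbours, although scarce genes can reach higher ratios than frequent ones.

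**Figure D2:**
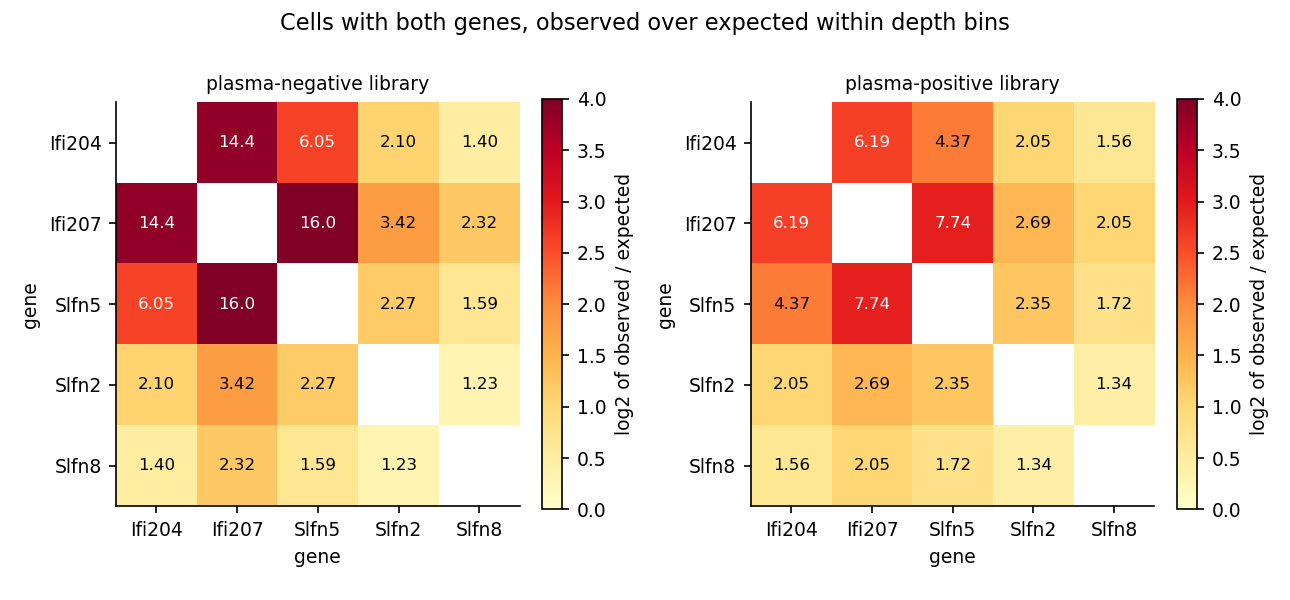
Number of cells with both genes over the number expected within depth bins, for 5 genes in each library; both axes list genes, printed numbers are the ratios, and colour gives their log2. Slfn5 with Ifi207 stands at 16.0 and 7.74, and Slfn2 with Slfn8 at 1.23 and 1.34.

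A list of 19 other interferon-induced genes, none of them among the 7, served to grade cells. It included Ifit1, Ifit3, Isg15, Oasl2, Rtp4, Irf7, Ifitm3 and Ifi27l2a. Of thinned plasma-negative cells 92.9% held 0 UMIs of the list, 5.63% held 1 and 1.43% (130 cells) held 2 or more. Of thinned plasma-positive cells the shares were 86.9%, 7.95% and 5.16% (504 cells). These are ranges of a count and not cell types. Many cells lay at the edge, with 510 and 776 cells at 1 UMI and 70 and 183 cells at 2 UMIs.

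In both libraries the summed level of the 7 genes was higher in the cells with 2 or more list UMIs, although most summed UMIs lay elsewhere. Those cells held 10.8% (plasma-negative) and 28.8% (plasma-positive) of the summed UMIs of the 7 genes, and cells with 0 list UMIs held 81.1% and 57.7%. The shares differed by gene. Plasma-positive cells with 2 or more list UMIs held 71.8% of the Ifi207, 62.2% of the Slfn5 and 51.1% of the Ifi204 UMIs. Their shares of Slfn2 and Slfn8 were 21.1% and 15.5%. Their plasma-negative counterparts held 9 of 12 Ifi207 UMIs, 45.5% of the Slfn5 and 34.8% of the Ifi204 UMIs. Ifi203 had 0 thinned UMIs in both libraries, and Mndal had 0 in the plasma-negative library. In the cells with 2 or more list UMIs the plasma-negative sum was 1300 CPM (1111 to 1511) and the plasma-positive sum 1385 CPM (1284 to 1492). In cells with 0 list UMIs they summed to 150.2 CPM and 165 CPM. The ratio of the former to the latter was 8.66 (7.33 to 10.2) and 8.41 (7.67 to 9.22). Slfn5 differed most among the Schlafen genes, 67.5-fold (37.0 to 123) and 39.9-fold (27.7 to 58.4), followed by Slfn2, 7.09-fold and 5.61-fold, and Slfn8, 2.95-fold (1.96 to 4.28) and 3.61-fold (2.96 to 4.37). Ifi204 differed 39.2-fold (26.9 to 56.6) and 23.7-fold (18.9 to 29.9). Ifi207 had the largest ratios of the 5 genes, 292-fold (60.4 to 2773) in the plasma-negative library, where the cells with 0 list UMIs held 2 of its UMIs, and 55.4-fold (34.7 to 91.5) in the plasma-positive library.

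At the grade of 2 or more list UMIs, several of the genes lay close together in the libraries, with intervals of the ratio that include 1. The grade was not filled alike: 60 of its 130 plasma-negative and 321 of its 504 plasma-positive cells held 3 or more list UMIs. In cells with 2 or more list UMIs, plasma-negative Ifi204 was at 377 CPM (279 to 498) and plasma-positive Ifi204 at 369 CPM (318 to 426), a ratio of 0.979 (0.711 to 1.37). The Schlafen sum there was 854 CPM (702 to 1028) and 853 CPM (774 to 938), a ratio of 0.999 (0.809 to 1.24). Ifi207 remained higher in the plasma-positive library, at 69.2 CPM (31.7 to 131) and 157 CPM (124 to 195), a ratio of 2.26 (1.13 to 5.13) that rests on 9 and 79 UMIs. The interval of Ifi204 leaves room for a lower or a higher level in the plasma-positive library.

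In cells with 0 list UMIs after thinning, Slfn8 and the Schlafen sum lay near 1 and the scarcer genes above it. The Schlafen sum was 140.3 CPM (132 to 149) and 146 CPM (138 to 155), a ratio of 1.04 (0.962 to 1.13), and Slfn8 alone was at 0.931 (0.831 to 1.04). Ifi204 was at 9.62 CPM and 15.6 CPM, a ratio of 1.62 (1.22 to 2.16), Slfn5 at 1.78 (1.06 to 3.07) and Slfn2 at 1.14 (1.02 to 1.29). Ifi207 had a ratio of 11.9 (2.96 to 104), from 2 and 24 UMIs. In cells with 1 list UMI the ratios were 2.75 (1.40 to 5.88) for Ifi204 and 1.58 (1.27 to 1.99) for the Schlafen sum. The cells with 2 or more list UMIs held 34.8% of the Ifi204 UMIs and 7.89% of the Schlafen UMIs in the plasma-negative library, and 51.1% and 22.1% in the plasma-positive library.

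**Figure D3:**
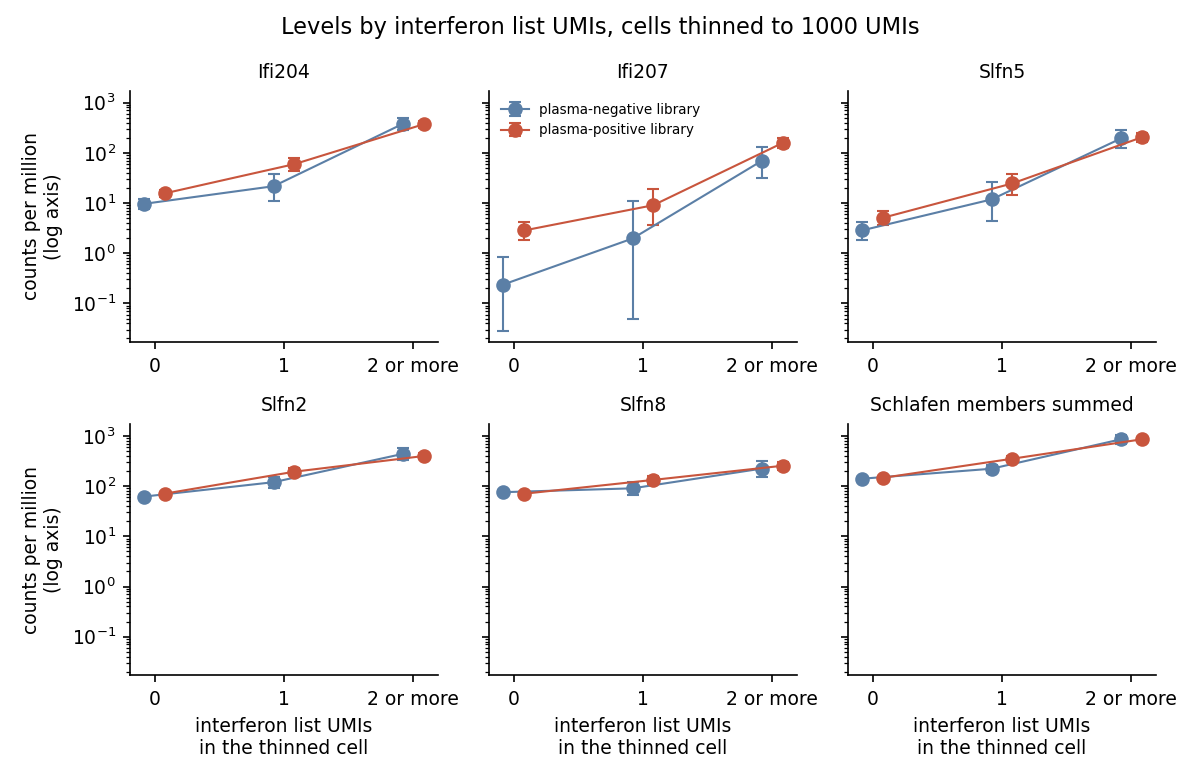
CPM (log axis) in cells thinned to 1000 UMIs, by the number of interferon list UMIs in the cell (0, 1, 2 or more), for each library with exact Poisson intervals of 95%. The libraries nearly coincide at 2 or more UMIs for Ifi204 (377 and 369 CPM) and for the Schlafen sum (854 and 853 CPM).

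Apoe encodes the lipid carrier apolipoprotein E, and cells were also graded by its UMIs, a grading chosen after values of these libraries were seen. In thinned cells with 0 Apoe UMIs the plasma-negative Ifi200 sum was 15.9 CPM (13.3 to 18.9) and the plasma-positive sum 31.2 CPM (27.4 to 35.3). In cells with 2 or more it was 34.0 CPM (15.5 to 64.5), from 9 UMIs in 265 cells, and 205 CPM (176 to 237), from 180 UMIs in 879 cells. The ratio between these grades was 2.13 (0.955 to 4.17) in the plasma-negative and 6.56 (5.39 to 7.98) in the plasma-positive library. For the Schlafen sum it was 1.13 (0.823 to 1.52) and 1.97 (1.74 to 2.23). With 1 library each, the difference between the libraries was not tested.

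The cells with Mndal or Ifi203 lay at the far end of that range. There were 15 of them, all in the plasma-positive library, and 4 held both genes. Each held between 16 and 780 Apoe UMIs, with a median of 332, whereas the median over all cells of that library was 0. At least 10 Apoe UMIs were found in 15 of these 15 cells and in 6.64% of all plasma-positive cells. Ifi204 was seen in 13 of the 15, Ifi207 in 8, a Schlafen gene in 11 and the interferon list in 14. Their median depth was 6532 UMIs, above the 3753 of the library. These cells were singled out after their values were seen.

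Markers of border-associated macrophages moved with these cells. At least 2 of the 7 such markers were found in 0 plasma-negative and 11 plasma-positive cells, and 7 of those 11 held Mndal and 3 held Ifi203. In turn, 7 of the 14 Mndal cells (50%) held 2 or more of the markers, against 0.106% of all plasma-positive cells. The 15 cells with Mndal or Ifi203 also held 4 to 11 of the 11 microglia markers, with a median of 11. Whether the border markers account for the Mndal and Ifi203 counts was not tested. Leaving out the 11 cells gave a ratio of 2.91 for the Ifi200 sum and 1.31 for the Schlafen sum, beside 3.03 and 1.32 with them. It took out 7 of the 14 Mndal cells and 3 of the 5 Ifi203 cells. Mndal and Ifi203 gave 35 and 18 of the 2236 plasma-positive UMIs in the Ifi200 sum, so the ratio of that sum says little about them.

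**Figure D4:**
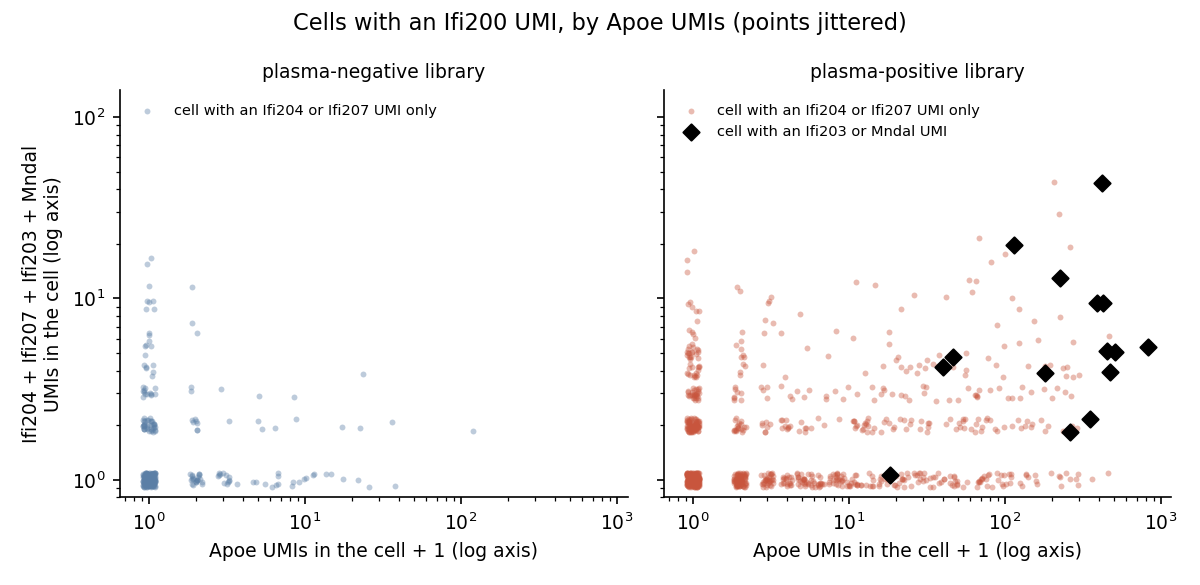
Each point is a cell with at least 1 UMI of Ifi204, Ifi207, Ifi203 or Mndal, by its Apoe UMIs plus 1 and by the sum of those 4 genes (both log axes, points jittered), 358 cells in the plasma-negative and 989 in the plasma-positive library. Diamonds mark the 15 cells with Ifi203 or Mndal, at 16 to 780 Apoe UMIs.

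Among the rest of the Ifi200 family, 9 further genes of the list were in the files, and 8 had a UMI. Aim2, whose protein starts the inflammasome on cytosolic DNA, was the most frequent and did not follow the others, with 96.9 CPM (93.6 to 100.2) and 94.7 CPM (91.8 to 97.7), a ratio of 0.977 (0.933 to 1.02). Ifi209 was at 9.58 CPM and 17.4 CPM, a ratio of 1.82 (1.60 to 2.08). Below 5 CPM, Ifi206 went from 21 to 194 UMIs, a ratio of 7.60 (4.83 to 12.6), Ifi211 from 22 to 191 UMIs, 7.14 (4.58 to 11.7), and Ifi213 from 18 to 106 UMIs, 4.84 (2.92 to 8.49). Ifi208 had a ratio of 4.11 (2.19 to 8.40), Ifi214 one of 2.18 (1.28 to 3.85), and Ifi205, with 1 and 20 UMIs, one of 16.5 (2.63 to 682). Ifi202b had 0 UMIs in both libraries.

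The other Schlafen genes were scarce. Slfn9, the near neighbour of Slfn8, had a ratio of 1.25 (1.06 to 1.46), from 7.44 CPM (6.56 to 8.41) in plasma-negative to 9.27 CPM (8.37 to 10.2) in plasma-positive microglia. Slfn3 had 12 and 19 UMIs, Slfn1 had 1 and 10, and Slfn14 had 1 and 1. Slfnl1 had 0 and 3 UMIs, and Slfn4 and the antisense gene Slfn5os, which overlaps Slfn5, had 0 in both.

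**Figure D5:**
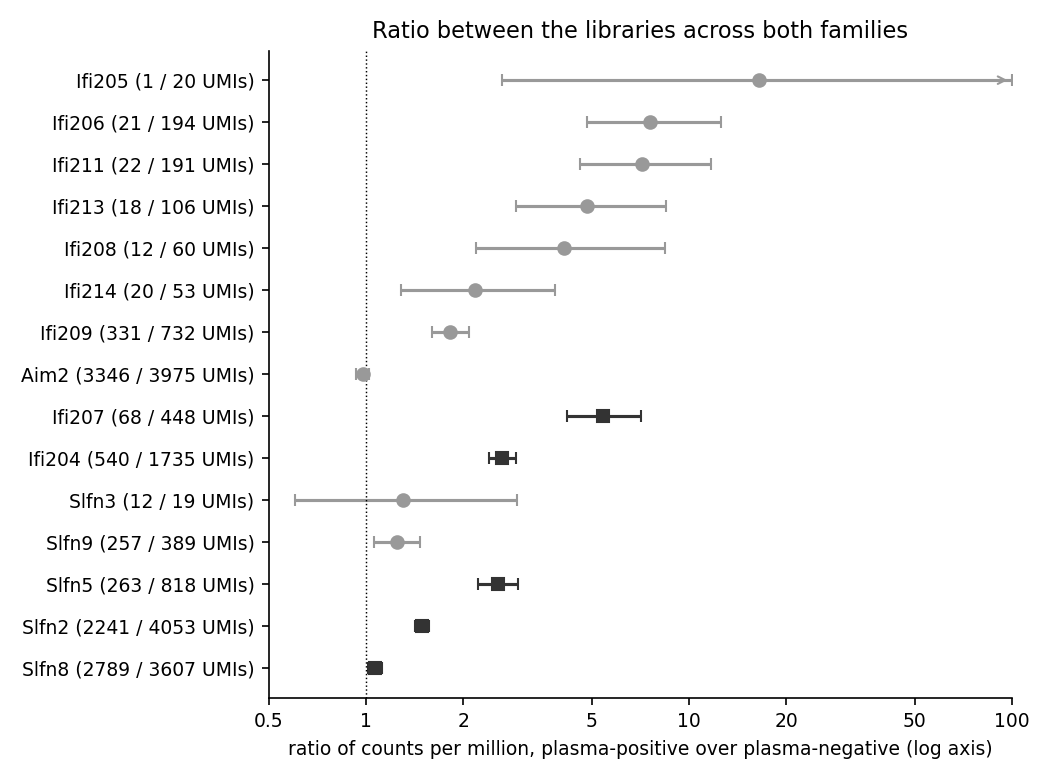
Ratio of CPM, plasma-positive over plasma-negative (log axis), with exact conditional intervals of 95%, for genes of both families with UMIs in both libraries, leaving out Slfn1 (1 and 10 UMIs) and Slfn14 (1 and 1); squares are 5 of the 7 genes described, circles other family members, and UMI counts stand beside each name. Aim2 and Slfn8 lie near 1 (0.977 and 1.06), and the arrow marks an interval that runs past the axis.

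Listed genes that sense nucleic acids or relay the interferon signal stayed within 1.5-fold where they reached 10 CPM pooled. Nearly all genes at that level did, and some scarcer listed genes passed that fold. Of 16 listed genes for nucleic acid sensing, 12 reached 10 CPM and 0 were 1.5-fold or more higher or lower. Over all 8249 genes at that level, 0.255% were higher and 0.0121% lower by that fold, so nothing is read from the 0. Of the 12, 9 lay above and 3 below a log2 ratio of 0, with a median of 0.05. Over all 8249 genes, 2954 lay above and 5295 below. Tmem173, which encodes the adaptor STING downstream of DNA sensors, was at 402 CPM and 374 CPM, a ratio of 0.930 (0.909 to 0.951). Mb21d1, which encodes the DNA sensor cGAS, was at 54.4 CPM and 55.3 CPM. Among the 12 genes the log2 ratio ran from -0.14 for Irf3 to 0.30 for Eif2ak2. Below 10 CPM, Zbp1 had 61 and 257 UMIs and a ratio of 3.47 (2.61 to 4.66), and Dhx58 had a ratio of 1.38 (1.17 to 1.63). Ikbke had 8 and 13 UMIs, and Trex1 had 2 and 0. Of 10 listed genes of interferon signalling, 7 reached 10 CPM, 0 passed 1.5-fold in either direction, and the median log2 ratio was 0.02. The same shares over all genes apply, so nothing is read from this 0 either. The receptor genes Ifnar1 and Ifnar2 had ratios of 0.971 and 0.983. Irf7, the transcription factor that amplifies the response, lay below 10 CPM pooled, with 141 and 451 UMIs and a ratio of 2.63 (2.17 to 3.20). Usp18 and Socs1 also lay below 10 CPM, with ratios of 2.48 (2.03 to 3.05) and 1.15 (0.967 to 1.37).

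Genes were ranked by the correlation of their thinned UMIs with the summed Ifi200 genes over cells. Among 8248 genes, 11 were in the highest 15 in both libraries, and 5 of these 11 belong to the interferon list. They included Ifit3, Ifitm3, Isg15, Ccl12, Slfn5, Cxcl10, Rtp4, Ifi27l2a, Bst2 and Clec2d. Pearson's r was 0.298 in plasma-negative and 0.353 in plasma-positive cells for Ifit3, and 0.178 and 0.252 for Slfn5, over 9064 and 9759 cells that share a library and, by thinning, a depth. With the summed Schlafen genes 12 genes were in the highest 15 in both libraries, among them Ifit3, Rtp4, Ifi204, Ifitm3, Isg15, Ccl12, Ifi27l2a, Cxcl10, Trim30a, Xaf1 and Sp100. The values were lower, 0.154 and 0.224 for Ifit3 and 0.0979 and 0.181 for Ifi204. At such sparse counts these correlations are weak, and they describe these cells only.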

How the data were processed

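The authors deposited whole-number UMI counts, not normalized, for each gene in each cell, from Chromium Single Cell 3' v3.1 libraries, per the labels' protocols. The authors wrote them with Cell Ranger 6.1.2, per the file headers, whereas the submitters' processing notes name Cell Ranger 3.0.1. Build, annotation and the handling of shared reads are not given in the sources used here. The genes, lists and comparisons were chosen with earlier results of these data known. Cells with at least 500 UMIs, 300 genes and at most 10% mitochondrial UMIs were kept. Doublets were not removed. Scrublet (scanpy 1.11.5) called 0 cells at its automatic threshold, which had not worked, so an alternative left out the highest scores at the expected 7.89% and 8.29%. Cell barcodes were not used here. Counts were summed per library and divided by its total, with no pseudocount and no length correction, since 3' counting does not scale with length. Intervals (scipy 1.17.1, numpy 2.4.6, pandas 2.3.3) are exact. With 1 library per group no test was run. The scripts were tested on simulated data. Named genes were the 7 genes, all listed family members, examples from the sensing and signalling lists, and those among the 15 highest correlations in both libraries. One gene that this rule names is not reported here.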

Additional observations from a re-analysis of the deposited data

Results flagged for a closer look

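Slfn5 ran in opposite directions in the libraries when cells with 2 or more thinned Apoe UMIs were set against cells with 0. The ratio of its CPM was 0.606 (0.0151 to 3.53, exact conditional interval) in the plasma-negative library and 4.52 (3.15 to 6.41) in the plasma-positive library. The plasma-negative value rests on 1 Slfn5 UMI in 265 cells, against 50 UMIs in 879 plasma-positive cells, and the difference between the libraries was not tested.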

How the results depend on the processing

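Of 95 recomputed values, 78 stayed within the counting interval or, for counts, within 1.5 times, 17 moved further and 0 reversed. Only ratios could reverse, since counts of genes and shares of cells have no direction. The ratio of the summed Ifi200 genes lay between 2.90 and 3.15 and that of the summed Schlafen genes between 1.28 and 1.34. The number of genes at 1.5-fold or more higher, and likewise at 2-fold, was 2, became 5 with no CPM minimum (Ifi203 and Mndal set against the 3-count limit) and 0 with a pooled minimum of 50 CPM, because Ifi204 and Slfn5 then drop out. The share of cells with any of the 7 genes was 24.8% and 29.4% at 2000 UMIs per cell, and 34.8% and 42.3% without thinning. The ratio between cells with 2 or more and 0 list UMIs became 6.41 and 6.73 at 2000 UMIs, and 13.2 and 10.5 with 3 or more list UMIs. Thinned cells without depth bins gave 2.26 and 2.63 for Ifi200 with Schlafen detection. For single genes, thinning moved Ifi204 to 2.40, Ifi207 to 8.51, from 12 plasma-negative UMIs, and Slfn2 to 1.38, and the other 32 of 35 values stayed. Scaling by the median log2 ratio of -0.03 over 3444 genes takes Slfn2 to 1.51, so 3 genes then pass 1.5-fold. A total without mitochondrial and ribosomal protein genes also takes Slfn2 to 1.51 and the number of genes to 3. Leaving out cells with border macrophage markers was chosen after seeing the data. No paired analysis was possible because there was only 1 library in a group, which also left no replicate to leave out. Ifi203 and Mndal, with 18 and 35 UMIs in the plasma-positive library and 0 in the other, gave no ratio at this depth.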
